A study of Mus musculus with 2 samples.

Results

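A set of 4 long genes that do not encode transcription factors, *Cdh22*, *Nav2*, *Skap1* and *Spnb4*, carried many separate H3K27me3 regions within their transcribed stretch in mouse rib chondrocytes. These 4 genes, of 922 named in the deposited list of regions, were chosen by the number of listed regions that overlap them, so that number and the positions it rests on are given as a description and without a test. They accounted for 32 of 2017 regions, which is 1.59%. Of the 32 regions, 28 overlapped their gene and 4 lay outside it within 5000 bp. None of the 32 regions was assigned to a second gene.

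The study mapped H3K27me3 by chromatin immunoprecipitation followed by sequencing (ChIP-seq) in wild-type rib chondrocytes. The cells came from 11 CD1 mice at postnatal day 2.5, were pooled, and were kept overnight in medium with 5% serum on 2 dishes of 10 cm. There was 1 library of chromatin pulled down with an antibody to H3K27me3 and 1 library of input chromatin from the same pool, taken as 2% of it, with no replicates. Both libraries therefore share strain, age and culture, and differ in the pull-down alone. Because all animals were pooled, no spread between animals could be given, and all intervals below are exact Clopper-Pearson intervals at 95% that treat the tags as independent and cover counting error only.

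H3K27me3 is the mark that PRC2 places on histone H3, and genes that carry it over broad stretches are mostly silent. It is best known from the CpG-rich 5′ ends of developmental regulators, where PRC2 is recruited, and it can also lie inside genes or between them. The 4 genes here are known from other tissues. *Cdh22* encodes an atypical cadherin of brain and pituitary, *Nav2* a neuron navigator protein that takes part in neurite outgrowth and is induced by retinoic acid, *Skap1* an adaptor that links the T cell receptor to integrin adhesion, and *Spnb4* (*Sptbn4* in RefSeq) the βIV-spectrin that anchors ion channels at axon initial segments and nodes of Ranvier. A region named 0 of 14 chondrocyte genes, among them *Sox9*, *Col2a1* and *Acan*. Of 3 muscle markers *Pax7* was named, by 5 regions, and of 2 blood cell markers *Cd3e*, by 1. None of 3 osteoblast and 2 endothelial markers was named. Over all protein-coding genes of RefSeq, 855 of 21896 were named, or 3.9%, and these marker lists are too short to set against that share. With a repressive mark and 922 named genes, these counts do not measure expression and cannot check the labelled cell type.

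To show the kind of sequence at which these genes begin, the 5′ ends listed by RefSeq (build GRCm38.p6) are given for the members that had an entry, 3 of the 4 genes. Each run holds the 250 bases before and the 50 bases after an annotated start, printed in the direction of the gene, and capitals mark the dinucleotide CG. *Nav2* has 2 such starts and *Sptbn4* has 4, of which the most upstream is shown. The list of regions is on build mm9, so these windows were not placed on it.

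*Cdh22*, chr2:165234688-165234987, minus strand: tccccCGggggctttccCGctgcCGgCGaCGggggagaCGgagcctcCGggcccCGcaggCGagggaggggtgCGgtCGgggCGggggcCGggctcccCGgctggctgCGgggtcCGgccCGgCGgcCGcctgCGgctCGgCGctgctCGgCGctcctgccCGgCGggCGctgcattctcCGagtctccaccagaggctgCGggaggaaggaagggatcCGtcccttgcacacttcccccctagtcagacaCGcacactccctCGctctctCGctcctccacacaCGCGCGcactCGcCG

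*Nav2*, upstream start, chr7:48958823-48959122, plus strand: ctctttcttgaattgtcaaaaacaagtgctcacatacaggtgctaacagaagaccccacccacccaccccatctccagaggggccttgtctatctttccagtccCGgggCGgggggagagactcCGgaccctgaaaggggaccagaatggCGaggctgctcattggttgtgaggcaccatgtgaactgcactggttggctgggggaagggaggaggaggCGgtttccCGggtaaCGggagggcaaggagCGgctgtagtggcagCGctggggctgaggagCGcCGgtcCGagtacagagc

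*Nav2*, downstream start, chr7:49245939-49246238, plus strand: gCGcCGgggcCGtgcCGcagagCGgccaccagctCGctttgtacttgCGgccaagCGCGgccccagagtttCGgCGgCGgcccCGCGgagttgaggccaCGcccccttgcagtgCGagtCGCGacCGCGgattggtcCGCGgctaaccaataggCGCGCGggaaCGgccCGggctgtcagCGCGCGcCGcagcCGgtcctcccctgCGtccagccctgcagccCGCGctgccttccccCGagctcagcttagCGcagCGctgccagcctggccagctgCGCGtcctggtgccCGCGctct

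*Sptbn4*, chr7:27446540-27446839, minus strand: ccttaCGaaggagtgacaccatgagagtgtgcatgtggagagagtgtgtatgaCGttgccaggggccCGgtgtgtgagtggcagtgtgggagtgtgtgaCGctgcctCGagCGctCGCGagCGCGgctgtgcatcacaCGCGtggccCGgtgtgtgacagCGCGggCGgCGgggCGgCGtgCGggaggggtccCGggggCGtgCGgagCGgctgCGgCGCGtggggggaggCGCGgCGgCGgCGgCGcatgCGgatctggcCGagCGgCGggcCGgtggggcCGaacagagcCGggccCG

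The window of *Cdh22* held 38 CG dinucleotides, that of *Sptbn4* 41, and those of *Nav2* 12 at the upstream and 42 at the downstream start. Over all 32851 windows of 300 bases in the table the median was 7. At least as many CG as in *Cdh22* were found in 4.95% of windows, as in *Sptbn4* in 3.46%, as in the downstream start of *Nav2* in 3.03% and as in its upstream start in 39.6%. The other 3 starts of *Sptbn4*, not printed, held 33, 24 and 1 CG, so that starts of the same gene differed widely in *Nav2* and in *Sptbn4*.

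*Cdh22* on chromosome 2 had the most regions of any gene in the list, 10 in all. Of these, 8 overlapped the gene, 1 lay upstream and 1 downstream. The distances in the list fitted a single 5′ end at 165060237 (mm9) with the gene on the minus strand. The distance of the 1 downstream region alone placed the 3′ end at 164937007, which gives 123230 bp from end to end. The regions inside the gene covered 9649 bp, or 7.83% of that stretch.

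From the 5′ end onwards, the regions of *Cdh22* formed a chain with 1 long interruption. The upstream region ended 4363 bp before the 5′ end and held 104 ChIP tags against 12 input tags. Then came a pair that began 3551 and 5440 bp into the gene, with 69 and 76 ChIP tags, and single regions that began at 23664, 40915, 48220 and 54941 bp, with 59, 48, 64 and 107 ChIP tags. No region was listed over the next 57509 bp. A second pair, 84 bp apart, began at 114394 and 115494 bp with 55 and 49 ChIP tags, near the 3′ end of the gene, and the last region lay 4632 bp beyond that end with 63 ChIP tags. The 5′ end itself was not covered, and with a limit of 2500 bp from it 0 regions of *Cdh22* were left.

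In these 10 regions, ChIP tags per kb ranged from 47.8 to 68.8. The height of the ChIP profile, its highest point within a region, ranged from 8.19 to 11.2. The lowest of these heights was above that of 18.1% of all regions in the list, and the highest above that of 95.9%. Input tags ranged from 2 to 16 per region. The 694 ChIP tags of the gene stood against 68 from input, and their ratio of 10.2 (7.95 to 13.3) was the highest among the 4 genes, although its interval overlapped those of the other genes. The region that began at 48220 bp had the highest ratio among the regions with input tags, 32.0 (8.50 to 270), from 64 ChIP and 2 input tags. The same region had the lowest ChIP tags per kb of the 10, 47.8, so its high ratio rests on its low input, 1.49 tags per kb.

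*Skap1* on chromosome 11 had 9 regions, of which 8 overlapped the gene. The distances placed its 5′ end at 96325938 on the plus strand. The regions were spread over 248741 bp, the widest stretch among the 4 genes, and covered 4.70% of it. The first ended 1500 bp upstream of the 5′ end and was among the longest of the gene, with 2432 bp and 121 ChIP tags against 12 input tags.

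Inside *Skap1* no region lay near the 5′ end. The first began at 37968 bp with 82 ChIP tags and 6 input tags, and the next at 93142 and 113110 bp with 51 and 53 ChIP tags. After 55494 bp without a region came 5 more, beginning at 169652, 186967, 197009, 213054 and 242348 bp, with 24, 28, 68, 81 and 129 ChIP tags. These regions were singletons, since the shortest distance between neighbours was 9583 bp. That differs from the other 3 genes, where the shortest distances were 84, 394 and 237 bp. The second and the eighth region of *Skap1* in the direction of the gene had heights of 10.2 and 11.3, and the tag enrichment of the second, 7.25, was above that of 97.5% of all regions. That deposited enrichment sets input to at least 9.20 tags per kb, and the measured input of the second region was lower, 4.88 per kb.

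The ratio over the 9 regions of *Skap1* was 8.61 (6.76 to 11.1), from 637 ChIP and 74 input tags. The ratios of single regions ran from 4.82 (2.49 to 10.2) at 113110 bp to 13.7 (6.02 to 38.3) at 37968 bp, and these intervals overlap. The parts of the gene before and after the longest stretch without a region had ratios of 8.30 (5.89 to 12.0) and 8.92 (6.34 to 12.9).

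*Nav2* on chromosome 7 had 8 regions in a different layout, with 2 on either side of the 5′ end, which was itself not covered, and 6 far inside the gene. Its 5′ end lay at 56214443 on the plus strand. The first region ended 831 bp upstream of it and held 64 ChIP tags and 4 input tags, and the second began 1383 bp into the gene and held 24 ChIP tags and 0 input tags. No region was listed over the next 189954 bp, the longest such stretch among the 4 genes. The other 6 regions lay between 191784 and 234138 bp from the 5′ end, within 42355 bp.

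In the distal group of *Nav2*, regions began at 191784, 193454, 203621, 207308, 226334 and 232986 bp. They held 41, 139, 162, 64, 56 and 60 ChIP tags and 2, 19, 30, 7, 11 and 16 input tags, in that order. The region at 203621 bp, 3294 bp long, was the longest of all 32 and the highest in the caller's order, at rank 133 of 2017. The region at 226334 bp reached a height of 11.3, the only one of *Nav2* over 10.

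The distal regions of *Nav2* had a lower ratio of ChIP to input tags than those at its 5′ end. The ratio was 22.0 (8.29 to 82.5) over the 2 regions at the 5′ end, with 88 ChIP and 4 input tags, and 6.14 (4.87 to 7.82) over the 6 distal regions, with 522 and 85 tags. The intervals do not overlap. The split was made at the longest gap after the values were seen, and the 2 regions at the 5′ end rest on 4 input tags. ChIP tags per kb were alike in both groups, 52.0 and 51.3, whereas input tags per kb were 2.36 at the 5′ end and 8.35 in the distal group. What gave the higher input there was not tested. In the other 3 genes, the ratios on either side of the longest gap had overlapping intervals.

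The last region of *Nav2*, at 232986 bp, had the lowest ratio of the 32, 3.75 (2.13 to 6.98), with 60 ChIP tags and 16 input tags. The ratio for the whole gene, 6.85 (5.48 to 8.66) from 610 ChIP and 89 input tags, was the lowest of the 4 genes.

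*Spnb4*, also on chromosome 7, had 5 regions, and all of them overlapped the gene. Its 5′ end lay at 28231608 on the minus strand, and the nearest region began 40336 bp into the gene. *Spnb4* was thus the only member without a region within 5000 bp of its 5′ end on either side. A pair of short regions began at 40336 and 43002 bp, with 28 and 24 ChIP tags and 3 and 2 input tags. A closely spaced group of 3 followed at 67016, 69083 and 70252 bp, with 96, 55 and 61 ChIP tags and 8, 6 and 8 input tags.

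The group of 3 in *Spnb4* filled 3944 of 4443 bp, with interruptions of 264 and 237 bp, so that it was close to 1 continuous stretch. Its ratio was 9.64 (6.20 to 15.7), from 212 ChIP and 22 input tags. The pair nearer the 5′ end held 52 and 5 tags, a ratio of 10.4 (4.18 to 33.4). The first region of the pair, only 386 bp long, had a height of 10.8 and a tag enrichment of 7.88, higher than in 99.6% of all regions. This deposited enrichment sets input to at least 9.20 tags per kb, and the region's measured input was below that. The gene as a whole had 264 ChIP and 27 input tags and a ratio of 9.78 (6.57 to 15.1).

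**Figure D1:**
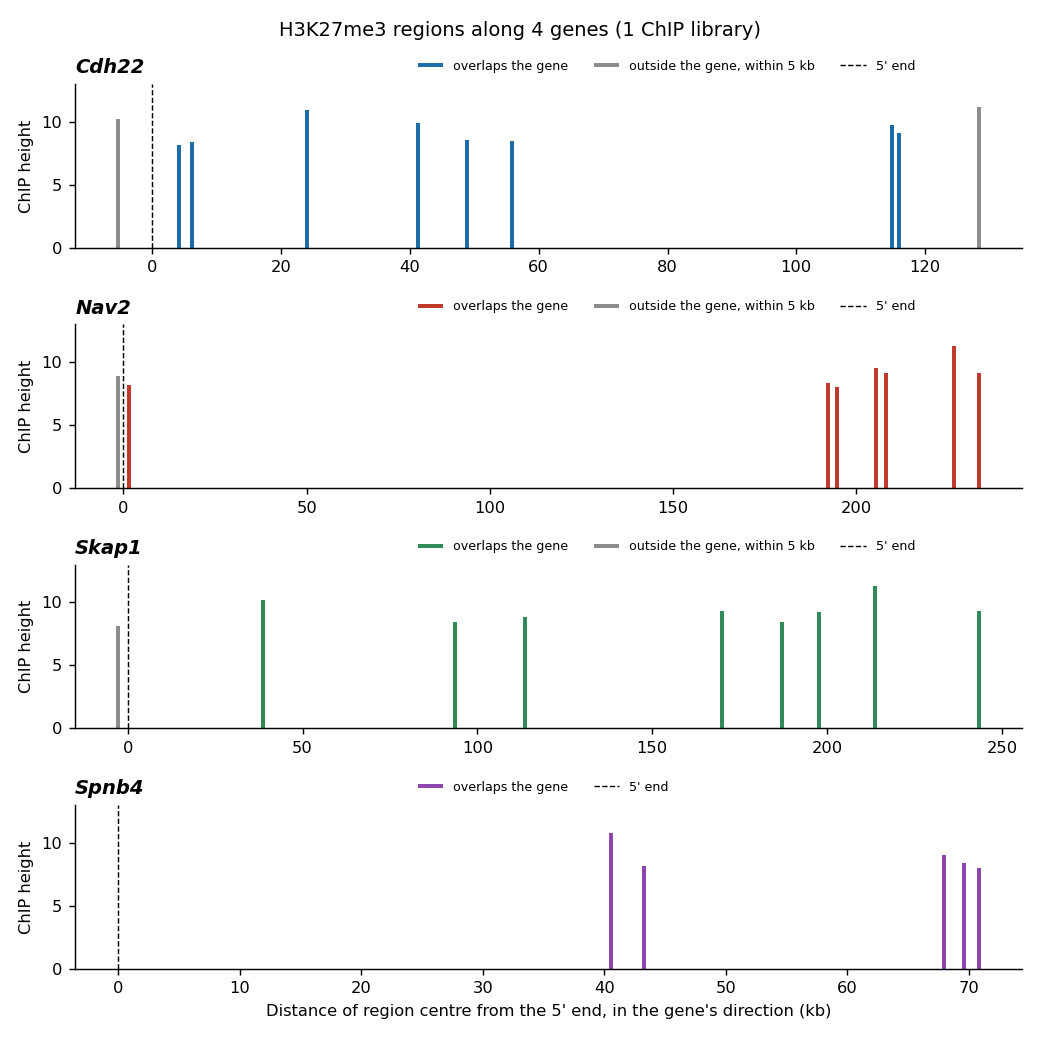
Position of the 32 H3K27me3 regions of *Cdh22*, *Nav2*, *Skap1* and *Spnb4* (x axis, distance of the region's centre from the 5′ end in kb, in the direction of the gene) and the height of the ChIP profile in each (y axis, deposited signal, 1 library). Line width does not show the length of a region; coloured lines overlap the gene, grey lines lie outside it, and the regions of *Nav2* fall near the 5′ end and from 191784 bp onwards with none between.

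The level of signal within regions was similar in the 4 genes. ChIP tags per kb over all regions of a gene were 54.8 at *Cdh22*, 51.4 at *Nav2*, 54.5 at *Skap1* and 55.1 at *Spnb4*, beside a median of 54.4 over all regions. Input tags per kb were 5.37, 7.50, 6.33 and 5.64, beside a median of 6.22. The values of a gene pool the tags and bp of its regions, whereas the medians are taken over single regions, so they are not the same measure. The lowest ChIP height in the whole list was just over 8, so stretches with less signal were not listed for any of the 4 genes, and values near the median follow in part from this lower limit.

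**Figure D2:**
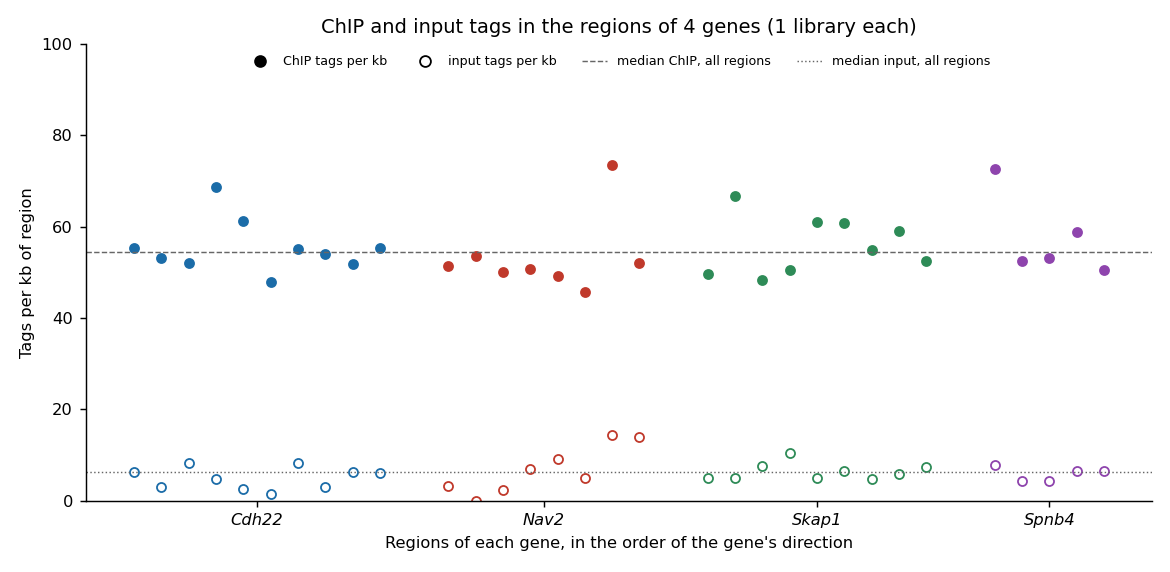
ChIP tags (filled points) and input tags (open points) per kb of region (y axis) for the 32 regions of the 4 genes, in the direction of each gene (x axis). Dashed and dotted lines mark the medians of all 2017 regions, 54.4 ChIP and 6.22 input tags per kb; the last 2 regions of *Nav2* have the highest input of the 32.

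The regions of the 4 genes had a median length of 1180 bp (386 to 3294 bp) and a median height of 9.08, compared with 1067 bp and 8.68 over all 2017 regions. A height of at least 10 was reached by 7 of the 32 regions, 21.9%, and by 13.1% of all regions. These 7 regions were 3 of *Cdh22*, 2 of *Skap1*, 1 of *Nav2* and 1 of *Spnb4*, so each gene had at least 1. The ranks of the 32 regions ran from 133 to 2011 with a median of 912. Regions of 1 library are not replicates, and no test was made of these differences.

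The ratio in the whole list was 7.47 (7.36 to 7.58), from 143822 ChIP and 19260 input tags. None of the ratios was corrected for library depth. The interval of *Cdh22* lay above that value, and those of *Nav2*, *Skap1* and *Spnb4* held it. Among single regions, the interval lay above 7.47 for 1 of 32, in *Cdh22*, and below it for 1 of 32, in *Nav2*. The *Cdh22* region was the one at 48220 bp, with 2 input tags. Over all regions, 8.08% lay above and 4.96% below. At 24 to 162 ChIP tags and only 0 to 30 input tags per region, most single ratios were too imprecise to tell apart from the ratio of all regions.

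**Figure D3:**
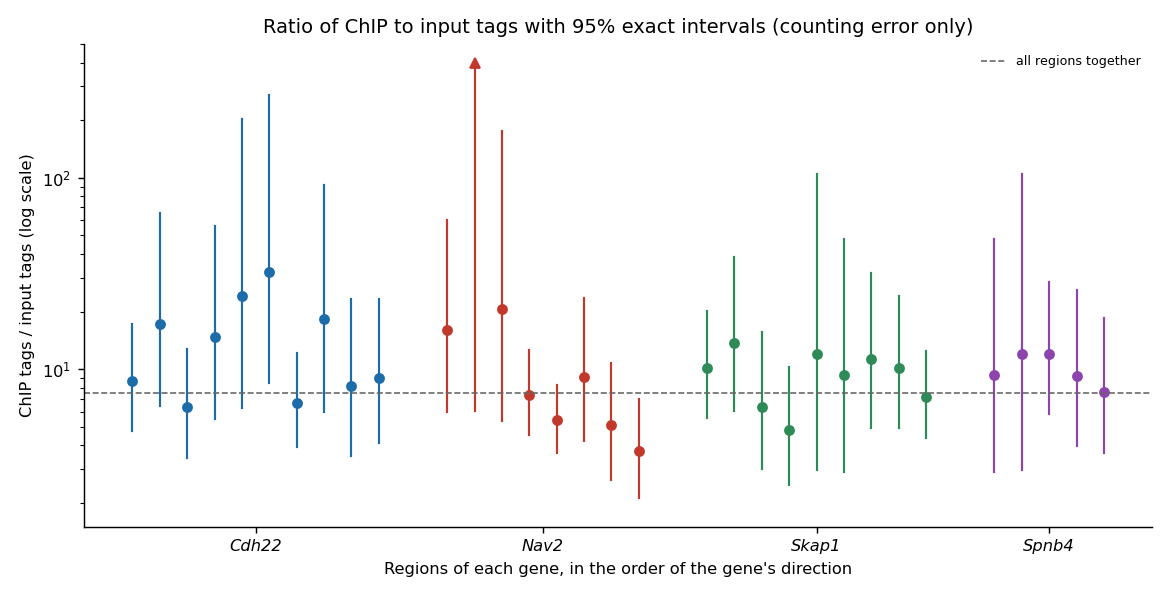
Ratio of ChIP to input tags in each of the 32 regions (y axis, log scale) in the direction of each gene (x axis), with 95% exact intervals as vertical lines and the ratio of all regions, 7.47, as a dashed line. The arrow marks the *Nav2* region with 0 input tags, for which only the lower bound of 6.02 can be given; 30 of the 32 intervals hold the dashed line.

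The members lay deep inside their genes compared with listed regions in general, which follows in part from how they were chosen. Of the 28 regions that overlap a member, 25 began more than 10000 bp from the 5′ end, and over all 874 pairs of a region and a gene it overlaps the share was 28.6%. The median distance was 103126 bp for the 28 and 3426 bp for all 874 pairs. Within 2500 bp of the 5′ end lay 3 of the 32 regions, 2 of *Nav2* and 1 of *Skap1*, and the share over all 1535 pairs of a region and a named gene was 40.7%. Since only a long gene can hold a region far from its start, nothing is read from these shares.

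The members were among the genes with the most overlapping regions, as the choice requires. That number did not separate *Nav2* and *Spnb4* from all other genes. Of 588 genes with an overlapping region, 19 (3.23%) had 5 or more, and 431 had 1. *Skap1* and *Cdh22* had 8, *Nav2* had 7 and *Spnb4* had 5. *Spnb4* was one of 10 genes with 5, and its regions spanned 31123 bp. Those 10 include *Raet1b* and *Raet1c*, which share the same regions. In the order by number and then span, *LOC547349* came just before it, with 5 regions over 51578 bp, and *Sox2ot* just after it, with 5 over 26392 bp. The first gene with 4 regions was *Scn8a*, over 172530 bp.

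Among the genes that are not members, the 5 with the most overlapping regions were *Pax2*, *P140*, *Raet1a*, *Lmx1b* and *Nr2e1*. *Pax2* had 7 regions over 72296 bp and *P140* had 7 over 18796 bp. The transcription factor genes *Lmx1b* and *Nr2e1* had 6 each, over 68281 and 19442 bp, and *Raet1a* had 6 over 188851 bp. The overlapping regions of *Nav2* and *Skap1* spanned 232756 and 206842 bp, more than any of these 5, and those of *Cdh22* 112890 bp, more than all but *Raet1a*. The ratio at *Raet1a*, 4.13 (3.65 to 4.69), lay below those of the 4 members with no overlap of intervals. It came from 1290 ChIP and 312 input tags over 18755 bp of overlapping regions. The overlapping regions of *Nav2* held 546 ChIP and 85 input tags over 10622 bp, a ratio of 6.42 (5.10 to 8.17). The difference in input was not tested. The intervals of *Pax2*, 6.71 (5.29 to 8.61), and *P140*, 9.29 (7.04 to 12.5), overlapped that of *Nav2*.

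**Figure D4:**
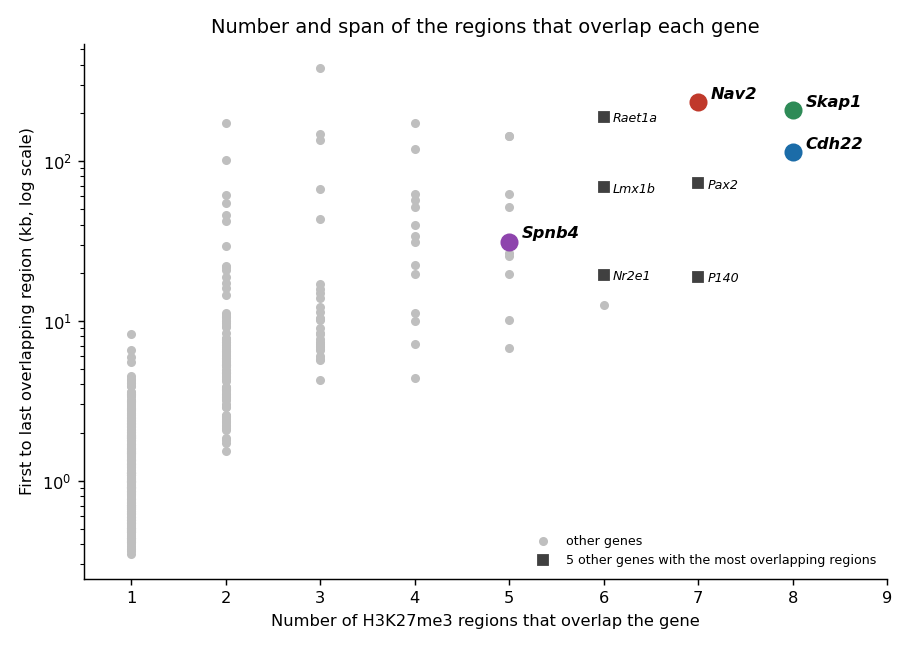
Number of H3K27me3 regions that overlap a gene (x axis) and the distance from the first to the last of them (y axis, kb, log scale) for all 588 genes with such a region; for a gene with 1 region the length of that region is plotted. *Nav2*, *Skap1* and *Cdh22* lie at the upper right with 7 or 8 regions, and *Spnb4* has 5 regions over 31123 bp; squares mark the 5 other genes with the most regions.

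Further regions flanked *Cdh22* and *Skap1*. Upstream of *Cdh22*, 4 further regions that were assigned to no gene lay between 6587 and 20093 bp from the 5′ end, the nearest of them 342 bp from the upstream region of *Cdh22* itself. Their pooled ratio was 9.94 (6.98 to 14.6), from 338 ChIP and 34 input tags, and the interval overlapped that of *Cdh22*. The single regions were not alike. In the nearest the ratio was 47.0 (12.7 to 394), with 94 ChIP and 2 input tags. In the farthest it was 3.29 (1.77 to 6.47), with 46 and 14 tags. These 2 intervals do not overlap, and the other ratios lay between. The list names a gene only within 5000 bp, so these 4 regions are not among the 10 of *Cdh22*. On the 3′ side, the next region lay 26018 bp beyond the last one of *Cdh22* and was also assigned to no gene.

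*Skap1* lies beside the Hoxb cluster. RefSeq lists *Hoxb1* and *Hoxb2* among its neighbours on its 5′ side. Within 250 kb on that side there were 16 regions, which named 7 Hoxb genes and 2 miRNA genes, and on the 3′ side there were 0. Between *Hoxb1* and *Skap1*, 3 regions were assigned to no gene, with 75, 96 and 38 ChIP tags, and the nearest lay 20070 bp from the upstream region of *Skap1*. Within 100000 bp of the 5′ end of *Skap1*, 5 regions that did not name *Skap1* had a ratio of 9.22 (6.67 to 13.1), from 378 ChIP and 41 input tags, and the interval overlapped that of *Skap1*. These were the 3 regions assigned to no gene and those that named *Hoxb1*, with 93 and 76 ChIP tags and 4 and 20 input tags.

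*Nav2* and *Spnb4* stood alone. Within 250 kb on either side of their outermost regions, 0 other regions were listed, and 0 other regions lay between their own.

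**Figure D5:**
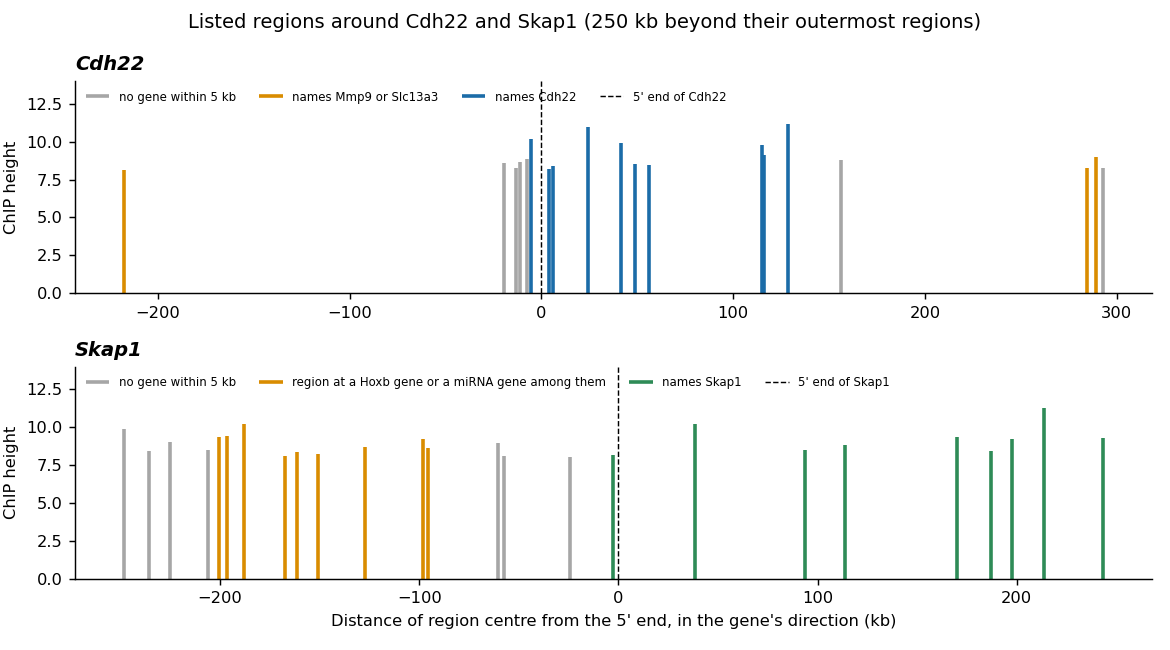
All listed regions from 250 kb before the first to 250 kb beyond the last region of *Cdh22* (top) and *Skap1* (bottom), by distance of the centre from the 5′ end of the gene (x axis, kb) and ChIP height (y axis, deposited signal). Regions of *Cdh22* and *Skap1* are in blue and green, regions with no gene within 5 kb in grey and regions at other genes in orange; 16 regions lie upstream of *Skap1*, and none lies in the 250 kb beyond its last one.

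Lists of relatives and partners of the 4 genes were read against all protein-coding genes of RefSeq, of which the list of regions named 855 of 21896, or 3.9%. The lists are short, some hold a member that was chosen for its regions, and no test was made. Of 23 cadherin genes by symbol, 3 were named in the list. Besides *Cdh22* these were *Cdh1* (E-cadherin), with 1 region of 48 ChIP and 17 input tags beginning 503 bp from the 5′ end, and *Cdh4* (R-cadherin), with 1 region of 48 and 10 tags that began 324354 bp into the gene. Of 7 catenin genes, whose products join cadherins to the cytoskeleton, *Ctnnd2* had 1 region with 34 ChIP and 2 input tags. *Nav2* was the only 1 of 3 neuron navigator genes in the list.

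Of 16 genes of retinoic acid synthesis, breakdown and reception, 3 were named: *Aldh1a2*, which encodes a retinoic acid synthesizing enzyme, with 4 regions, and the retinoic acid degrading enzymes *Cyp26c1* and *Cyp26a1* with 4 and 2, of which 1 is shared by both genes. The ratios were 7.32 (4.51 to 12.5) at *Aldh1a2* and 11.6 (8.06 to 17.4) at *Cyp26c1*. No receptor gene of that list was named.

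*Skap1* was named and its paralogue *Skap2* was not. Of 12 genes of T cell receptor signalling, 3 were named, and they were the CD3 chain genes. *Cd3d* and *Cd3g* share 1 region with 29 ChIP tags and 0 input tags, and *Cd3e* had 1 region with 32 ChIP tags and 1 input tag. The kinase and adaptor genes of the list, such as *Lck*, *Zap70* and *Lat*, were not named.

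Of 6 spectrin genes with a numbered symbol, *Spnb3* was named as well, by 1 region with 86 ChIP tags and 1 input tag that began 3349 bp from the 5′ end. Of 12 genes of the axon initial segment and node of Ranvier, where βIV-spectrin acts, 3 were named. These were the sodium channel gene *Scn8a*, with 4 regions, and the adhesion genes *Nfasc* and *Cntn2*, with 2 and 1. The regions of *Scn8a* had a ratio of 10.6 (6.66 to 17.6), from 211 ChIP and 20 input tags. Their deposited distances to a 5′ end ran from 3130 to 108946 bp. The regions spanned 172530 bp, so these distances cannot all be counted from a single 5′ end. The ankyrin genes *Ank2* and *Ank3* were not named. A gene that is not named may still carry signal below the lowest listed height or lie more than 5000 bp from its nearest region.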

How the data were processed

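The data were the list of H3K27me3 regions from 1 ChIP and 1 input library of chondrocytes (no replicates). The authors aligned reads to mm9, and QuEST called the regions with input as background, with settings not given in the sources used here. The authors counted the tags per region without normalization. The deposited signal is the height of the smoothed profile, and the deposited ratio (tag enrichment) sets input to at least 9.20 tags per kb, as found from the values. The q-value was deposited as −log10, and rank is a score by which the authors' caller ordered the regions. Distances to genes were deposited in bp.

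The regions naming *Cdh22*, *Nav2*, *Skap1* and *Spnb4* were taken. Lengths count both end positions, and whether positions count from 0 or 1 is not stated. Strand and 5′ end were taken as the one position that fitted all distances of a gene within 2 bp, checked on simulated data. Ratios are measured ChIP over input tags with Clopper-Pearson intervals from all tags of the regions; total depth is not in the list. No test between groups was made.

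The genes, the lists of related genes and the rule for comparison genes (the 5 others with the most overlapping regions, ties by span) were chosen with earlier results of these data known; *LOC547349*, *Sox2ot* and *Scn8a* were added after their values were seen, as the genes next to *Spnb4* in that order and the first with 4 regions. One item of the lists is not reported here, and the counts leave it out. Alternatives were a q-value of at most 0.01, overlapping regions only, heights from 10 upwards, input under 2 times its floor, merging over 3000 bp, a limit of 2500 bp on the distance to the 5′ end, and the deposited enrichment. All 4 genes matched RefSeq (GRCm38.p6), which was used for names, neighbours and the printed sequences, never for positions on mm9. Intervals were computed with scipy 1.17.1, tables were handled with pandas 2.3.3 and numpy 2.4.6 in Python 3.11.15, and plots were drawn with matplotlib 3.10.9.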

Additional observations from a re-analysis of the deposited data

How the results depend on the processing

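Of 92 recomputed values, 66 stayed within 1.5 times the main value or, for ratios, within its 95% interval, and 26 moved. Overlapping regions only moved none of 20 values, but the numbers of overlapping regions and all values of *Spnb4* could not change under it. A q-value of at most 0.01 and input below 2 times the floor removed 0 of the 32 regions, so the 20 values under each could not move. At heights of 10 or more, *Cdh22* kept 3 regions (1 overlapping, 3879 bp), *Skap1* 2 (2 overlapping, 2602 bp, ratio 11.6), *Nav2* 1 (1 overlapping, 762 bp, span 762 bp, ratio 5.09) and *Spnb4* 1 (1 overlapping, 386 bp, span 386 bp). The ratios 11.6 and 5.09 rest on fewer regions. Within 2500 bp of the 5′ end, *Cdh22* kept 0, *Nav2* 2, *Skap1* 1 and *Spnb4* 0 regions. With regions within 3000 bp merged, *Nav2* had 5 and *Spnb4* 2. The median deposited enrichment was 5.93 at *Cdh22*, 5.39 at *Nav2*, 5.97 at *Skap1* and 5.78 at *Spnb4*, below the measured ratios; it takes a median over regions in place of pooled tags and sets input to a floor in 29 of the 32 regions, and the parts of these changes were not tested. No paired analysis was possible because each group holds 1 library. The precision is limited by the 0 to 30 input tags per region.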

Other observations

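By the distance from the first to the last overlapping region, *Nav2* and *Skap1* came next after *Accn1*, an ion channel gene with 3 regions over 379273 bp. *Raet1a* was 4th with 6 regions over 188851 bp, and *Scn8a*, a sodium channel gene, 5th with 4 over 172530 bp. *Rnf220* had 2 regions over 172405 bp, and *Chst8* 3 over 134856 bp. *Raet1b* and *Raet1c* had 5 over 143617 bp, which are the same regions for both genes and end where those of *Raet1a* end. These genes were named after their values were seen.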
